A study of Mus musculus with 12 samples.

Results

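The 10 genes examined here are ones that hepatocytes around the central vein express under Wnt/β-catenin signaling. They were Glul, Slc1a2, Rhbg, Oat, Gulo, Axin2, Rnf43, Znrf3, Lgr5 and Tbx3. The members were chosen by name, and all 10 were among the 11289 genes of the deposited expression table. Liver tissue of 12 C57BL/6J mice had been sequenced, with 4 mice in each of 3 groups. Control mice received no concanavalin A (Con A), a lectin from jack beans whose injection causes T cell-driven acute hepatitis. Mice of the Con A + PBS group received 15 mg/kg of Con A through the tail vein and PBS intravenously 30 min later. Mice of the Con A + hWJ-MSCs group received the same dose of Con A and, 30 min later, 2000000 human mesenchymal stem cells from the Wharton's jelly of the umbilical cord (hWJ-MSCs) in PBS. Livers of the treated mice were taken at 24 h. According to the labels the mice were 8-10 weeks old, and the study's methods give another age and another cell number. All 3 groups were wild type, and the human cells came without a matched control cell type. The labels name no litter, cage or sequencing batch.

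The liver lobule is divided into zones along the blood flow from the portal tract to the central vein. Endothelial cells of the central vein secrete Wnt ligands and the Wnt amplifier Rspo3, which stabilize β-catenin in the neighbouring hepatocytes, where it acts with TCF/LEF factors at its target genes. The layer of hepatocytes at the vein is known for glutamine synthetase, which captures the ammonium that the urea cycle of the periportal hepatocytes has left. Several targets of the pathway, such as Axin2, Rnf43 and Znrf3, limit the same signal, and Axin2 is widely read as a measure of it.

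The deposited values were whole numbers that the authors had already normalized between mice, and each is called a normalized value here. They sum to between 17649654 and 17657159 per mouse, so the depth of sequencing is unknown and no counting error could be given. Every listed gene reaches 64 in at least 2 mice. Lgr5 reached it in all 4 control mice, in 0 mice of the Con A + PBS group and in 1 mouse of the Con A + hWJ-MSCs group, so it is listed mainly through the group in which it was highest. Axin2 reached it in 2 of 4 mice of the Con A + PBS group and in every other mouse, and the remaining 8 genes reached it in all 12 mice. A gene was called changed when its adjusted p from limma over all 11289 genes was under 0.05 and its fold change was above 1.5. All fold changes are on the log2(normalized value + 1) scale.

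The 10 genes lie on 8 chromosomes of the mouse genome (GRCm38, mm10). Glul was counted at chromosome 1, 153899944-153909723 on the plus strand, Slc1a2 at chromosome 2, 102658659-102790784 (plus), Rhbg at chromosome 3, 88242874-88254709 (minus), and Tbx3 at chromosome 5, 119670862-119684724 (plus). Oat was counted at chromosome 7, 132557475-132576398 (minus), Lgr5 at chromosome 10, 115450311-115587780 (minus), and Gulo at chromosome 14, 65986787-66009210 (minus). Chromosome 11 held Znrf3 at 5276324-5444847 (minus), Rnf43 at 87662722-87729934 (plus) and Axin2 at 108920349-108950783 (plus). The transcript listed for Rnf43 is annotated in GENCODE as a retained intron, and those of the other 9 genes as protein coding. Exons of Axin2, Glul, Slc1a2, Tbx3, Rhbg and Oat are touched by another annotated gene. Since the strand used in counting is not stated, reads of Axin2, Glul, Slc1a2 and Tbx3 cannot be told apart from those of the genes that touch their exons on the opposite strand. Fgfr2, the only such partner in the table, overlaps Oat on the same strand.

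The 250 bases before the start site are shown for 3 genes that differed in their response. Glul had the largest fall among the members, Axin2 had the largest estimated difference among the 10 genes between the groups given Con A, and Oat had the smallest fall among the called enzymes. The sequences are from RefSeq (GRCm38.p6), at chr1:153899679-153899928 on the plus strand for Glul, chr11:108920099-108920348 on the plus strand for Axin2 and chr7:132576399-132576648 on the minus strand for Oat. They are written 5′ to 3′ and hold no capitals, because none of the searched motifs was found.
Glul: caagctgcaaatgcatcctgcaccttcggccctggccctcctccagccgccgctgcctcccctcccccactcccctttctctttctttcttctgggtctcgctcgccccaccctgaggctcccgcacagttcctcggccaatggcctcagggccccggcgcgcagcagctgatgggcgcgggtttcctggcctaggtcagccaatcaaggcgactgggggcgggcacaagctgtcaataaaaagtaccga
Axin2: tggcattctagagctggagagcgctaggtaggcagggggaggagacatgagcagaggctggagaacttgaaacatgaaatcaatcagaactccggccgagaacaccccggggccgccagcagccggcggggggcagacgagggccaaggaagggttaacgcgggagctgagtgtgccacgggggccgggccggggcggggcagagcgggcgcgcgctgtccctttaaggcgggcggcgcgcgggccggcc
Oat: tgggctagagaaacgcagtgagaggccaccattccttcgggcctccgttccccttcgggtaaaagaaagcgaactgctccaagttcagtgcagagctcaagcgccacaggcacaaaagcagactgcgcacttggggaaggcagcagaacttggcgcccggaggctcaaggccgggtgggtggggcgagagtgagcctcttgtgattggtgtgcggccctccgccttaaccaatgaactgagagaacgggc
The motifs searched on both strands were 4 forms of the TCF/LEF core, of which CTTTGAT was present in 3.21% of all 32851 RefSeq windows of this length, CTTTGAA in 4.46%, CTTTGTT in 5.03% and CTTTGTA in 3.20%. At least 1 of them was present in 14.8% of the windows. RefSeq windows were matched for 5 of the 10 members, 6 windows in all. The single match among them was a CTTTGAT on the minus strand of a Slc1a2 window, whose start site lies 47779 bases downstream of the start of the listed transcript. A window without a match shows only that these letters are not within these bases.

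Con A lowered most of the pericentral β-catenin targets. In the Con A + PBS group 8 of the 10 genes were called lower than in the control mice and 0 were called higher, while 19.2% of all genes tested were called lower and 19.5% higher. The median log2 fold change of the 10 genes was -1.36, against 0.05 over all genes. The mice already shared a common median after the authors' normalization, which holds the value over all genes near 0. In 7 of the 10 genes every mouse of the Con A + PBS group was below every control mouse, as in 23.4% of all genes tested. Without Lgr5, 7 of 9 were called lower, the median was -1.25 and 6 of 9 were without overlap.

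All 5 members that encode enzymes or transporters were called lower. Glul encodes glutamine synthetase, which makes glutamine from glutamate and ammonium. Its normalized values were 7966, 10972, 12230 and 12230 in the control mice, 1926, 2004, 1741 and 1782 in the Con A + PBS group, and 1629, 3273, 1629 and 1558 in the Con A + hWJ-MSCs group. The control mice stood far above all 8 mice given Con A, and the groups given Con A overlapped. Glul was 10850 ± 2012 (SD, n = 4) in control mice and 1863 ± 123 in the Con A + PBS group, 5.75-fold lower (log2 fold change -2.52, SE 0.22, adjusted p 2.77e-06).

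Slc1a2 encodes a high-affinity glutamate transporter, which brings glutamate to the same cells. Its values were 2009, 2300, 2158 and 2000 in the control mice, 754, 831, 793 and 662 after Con A and PBS, and 529, 1054, 664 and 1064 after Con A and hWJ-MSCs. No control mouse overlapped with any mouse given Con A, and the mice given cells were spread to both sides of those given PBS. The fall after Con A and PBS was 2.79-fold (log2 fold change -1.48, SE 0.20, adjusted p 6.02e-05). Rhbg encodes an ammonium transporter of the hepatocyte membrane. It stood at 308, 308, 231 and 230 in the control mice, at 123, 110, 110 and 105 in the Con A + PBS group, and at 126, 128, 138 and 93 in the Con A + hWJ-MSCs group. The highest value after Con A was well below the lowest control value, and the decrease with PBS was 2.37-fold (log2 fold change -1.25, SE 0.15, adjusted p 2.94e-05).

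Oat encodes ornithine aminotransferase, which converts ornithine towards glutamate. Its values were 10897, 6498, 7908 and 6137 in the control mice, 4262, 3730, 5530 and 6137 in the Con A + PBS group, and 4088, 4534, 3478 and 3578 in the Con A + hWJ-MSCs group. The highest mouse of the Con A + PBS group was level with the lowest control mouse, and all mice given cells were below all control mice. Oat fell 1.59-fold with PBS (log2 fold change -0.67, SE 0.20, adjusted p 0.0131). Without control replicate 1 or without Con A + PBS replicate 2 the fold no longer passed 1.5.

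Gulo encodes the last enzyme of ascorbate synthesis, which humans lack. Its values were 3494, 3866, 4466 and 3866 in the control mice, 914, 1488, 1261 and 726 after Con A and PBS, and 1720, 2269, 1354 and 1158 after Con A and hWJ-MSCs. The mice given cells lay partly above the mice given PBS, and both groups were below the control mice. The fall with PBS was 3.70-fold (log2 fold change -1.89, SE 0.23, adjusted p 3.78e-05).

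Of the 5 signaling genes among the members, Axin2, Lgr5 and Znrf3 were called lower, and Rnf43 and Tbx3 were not called. Axin2 encodes a scaffold of the complex that destroys β-catenin, and its transcription is raised by the signal it limits. Its values were 110, 164, 238 and 174 in the control mice, 54, 92, 80 and 30 in the Con A + PBS group, and 120, 158, 108 and 90 in the Con A + hWJ-MSCs group. The mice given PBS were all below the control mice, while those given cells overlapped with both other groups. Axin2 fell 2.78-fold with PBS (log2 fold change -1.47, SE 0.33, adjusted p 0.00228). Lgr5, a receptor for R-spondins, stood at 134, 132, 179 and 159 in the control mice, at 40, 58, 32 and 28 with PBS, and at 43, 75, 48 and 38 with cells. Every mouse given Con A was below every control mouse, and with PBS the fall was 3.87-fold (log2 fold change -1.95, SE 0.26, adjusted p 5.58e-05).

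Znrf3 and Rnf43 encode related membrane ubiquitin ligases that remove Wnt receptors from the cell surface. Znrf3 was 200, 277, 175 and 236 in the control mice, 82, 100, 98 and 112 with PBS, and 112, 148, 76 and 110 with cells. The control mice did not overlap with either group given Con A, and the fall with PBS was 2.23-fold (log2 fold change -1.16, SE 0.20, adjusted p 3.95e-04). Rnf43 was 254, 438, 498 and 342 in the control mice, 264, 304, 250 and 194 with PBS, and 390, 382, 386 and 314 with cells. The lowest control mouse lay among the mice given PBS, and the mice given cells lay above all of those given PBS and within the control range. With PBS the log2 fold change of Rnf43 was -0.57 (SE 0.20, adjusted p 0.0254), a fold of 1.48 that missed the threshold of 1.5. It passed both thresholds when control replicate 1 or 4, or Con A + PBS replicate 1 or 2, was left out.

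Tbx3 encodes a T-box transcription factor that marks β-catenin activity in the liver. Its values were 464, 534, 900 and 586 in the control mice, 507, 720, 737 and 219 with PBS, and 853, 1014, 604 and 788 with cells. All 3 groups overlapped. The log2 fold change with PBS was -0.29 (95% interval -1.02 to 0.45, adjusted p 0.494), so a fall of the size seen in Rhbg lay outside the interval.

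**Figure D1:**
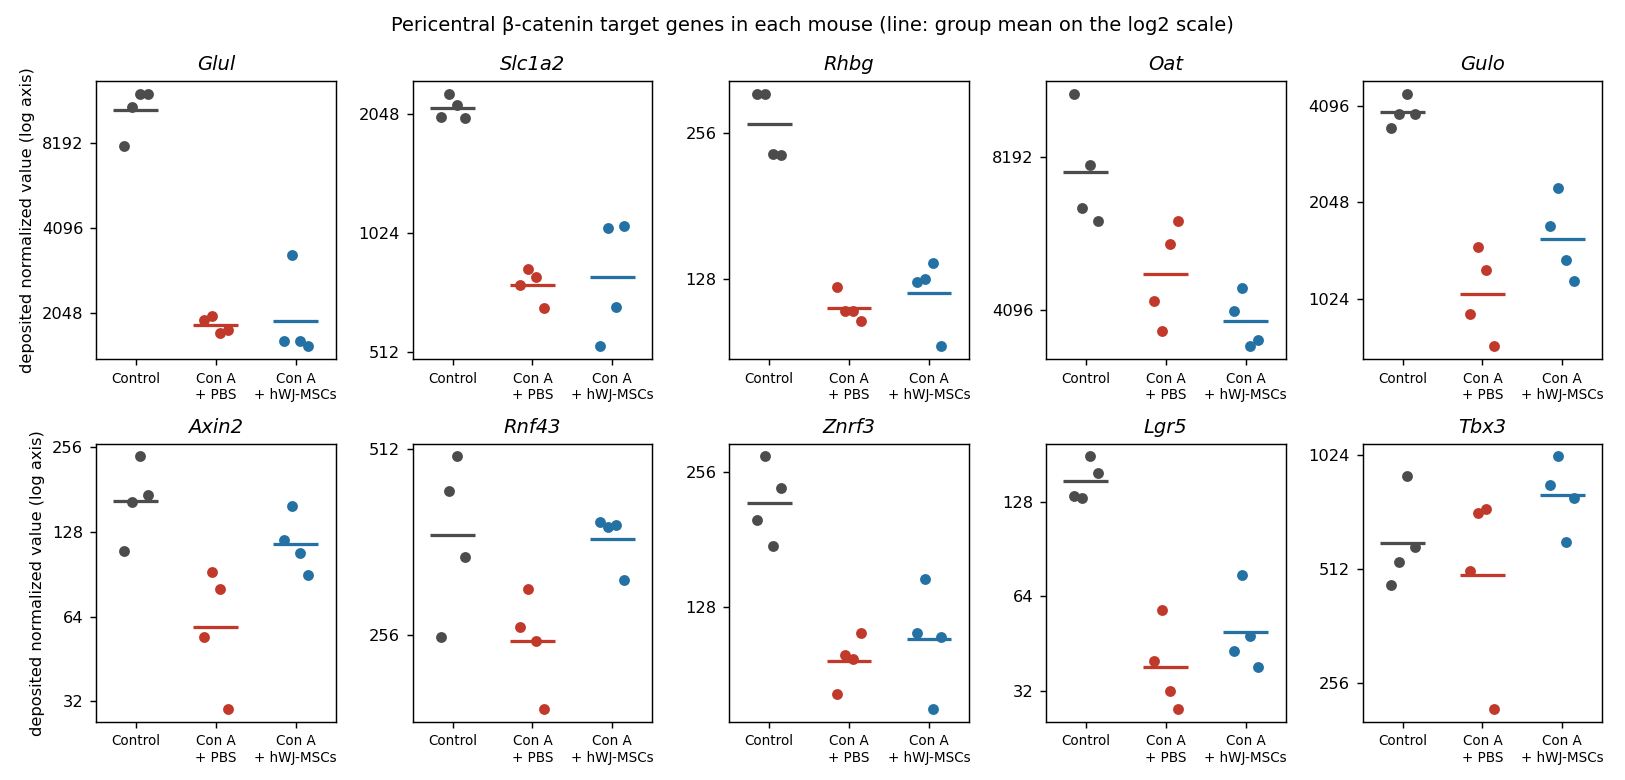
Normalized values of the 10 genes in each of the 12 mice (log axis, 1 panel per gene), with control mice in grey, the Con A + PBS group in red, the Con A + hWJ-MSCs group in blue and a line at each group's mean on the log2 scale. Glul, Slc1a2, Rhbg, Gulo, Znrf3 and Lgr5 show control mice above all 8 mice given Con A, whereas Tbx3 shows 3 overlapping groups.

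The question of the cell transfer is addressed by the difference between the Con A + hWJ-MSCs and the Con A + PBS groups. None of the 10 genes was called in this comparison (limma, 0 of 10), where 4.2% of all genes tested were called higher and 4.38% lower. With the replicate number as a block 1 member, Axin2, was called, in a fit that called 1297 genes in the whole table in place of 969. At an unadjusted p under 0.05 there were 3 of 10 members, against 34.6% of all genes tested. The number of calls with cells against PBS, here and in the lists that follow, depended on single mice: the 969 genes called in the whole table fell to 7 without Con A + PBS replicate 1, to 18 without replicate 2 and to 7 without replicate 3 of the mice given cells, and to 285 without Con A + PBS replicate 4, and rose to 1575 without Con A + PBS replicate 2. The estimates were not alike among the members. Axin2 was higher by 0.97 on the log2 scale (95% interval 0.26 to 1.68, adjusted p 0.0629), Gulo by 0.57 (0.07 to 1.08, adjusted p 0.106) and Rnf43 by 0.55 (0.13 to 0.98, adjusted p 0.0725). Rnf43 was the only member without overlap, all 4 mice given cells being higher, as in 11.9% of all genes tested. Its listed transcript is the retained intron named above, so its values may not stand for the coding transcript. Leaving out Con A + PBS replicate 2, the highest of its group in 6 of the 10 genes, brought Axin2, Gulo and Rnf43 past both thresholds, in a fit where 7.49% of all genes were called higher, and none was called when any other mouse was left out. Con A + PBS replicate 4 was the lowest of its group in 7 of the 10 genes, and without it the differences were 0.66 for Axin2, 0.43 for Rnf43 and 0.31 for Tbx3.

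The glutamine and ammonium genes gave estimates near 0 with the cells. For Glul the log2 difference was 0.04 (95% interval -0.44 to 0.52, adjusted p 0.909). It was 0.07 for Slc1a2 (-0.36 to 0.49, adjusted p 0.842) and 0.10 for Rhbg (-0.22 to 0.42, adjusted p 0.660). These intervals do not contain a return to the control level for any of the 3 genes. Oat had the only negative estimate, -0.31 (-0.74 to 0.13, adjusted p 0.292). Among the other signaling genes, Tbx3 had a log2 difference of 0.70 (-0.04 to 1.44, adjusted p 0.164), Lgr5 of 0.37 (-0.19 to 0.92, adjusted p 0.327) and Znrf3 of 0.15 (-0.28 to 0.59, adjusted p 0.609). Con A + hWJ-MSCs replicate 2 was the highest of its group in 7 of the 10 genes and replicate 4 the lowest in 6, and without replicate 2 the Glul difference was -0.21.

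Compared with the control mice, 7 of the 10 genes were called lower in the Con A + hWJ-MSCs group, with 13.1% of all genes tested called lower and 13.6% higher, and all 7 were without overlap, as in 17.3% of all genes tested. Without Lgr5 these counts were 6 of 9. The log2 fold changes were -2.48 for Glul (SE 0.22, adjusted p 6.55e-06), -1.58 for Lgr5 (SE 0.26), -1.41 for Slc1a2 (SE 0.20), -1.31 for Gulo (SE 0.23), -1.14 for Rhbg (SE 0.15), -1.004 for Znrf3 (SE 0.20) and -0.97 for Oat (SE 0.20). The adjusted p of Oat was 0.0023, the largest of the 7. Axin2, Rnf43 and Tbx3 were not called, with log2 fold changes of -0.50 (95% interval -1.21 to 0.21, adjusted p 0.241), -0.02 (-0.44 to 0.41, adjusted p 0.951) and 0.41 (-0.33 to 1.15, adjusted p 0.355). This comparison shares its control mice with that of the Con A + PBS group, so the calls in both are not independent.

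**Figure D2:**
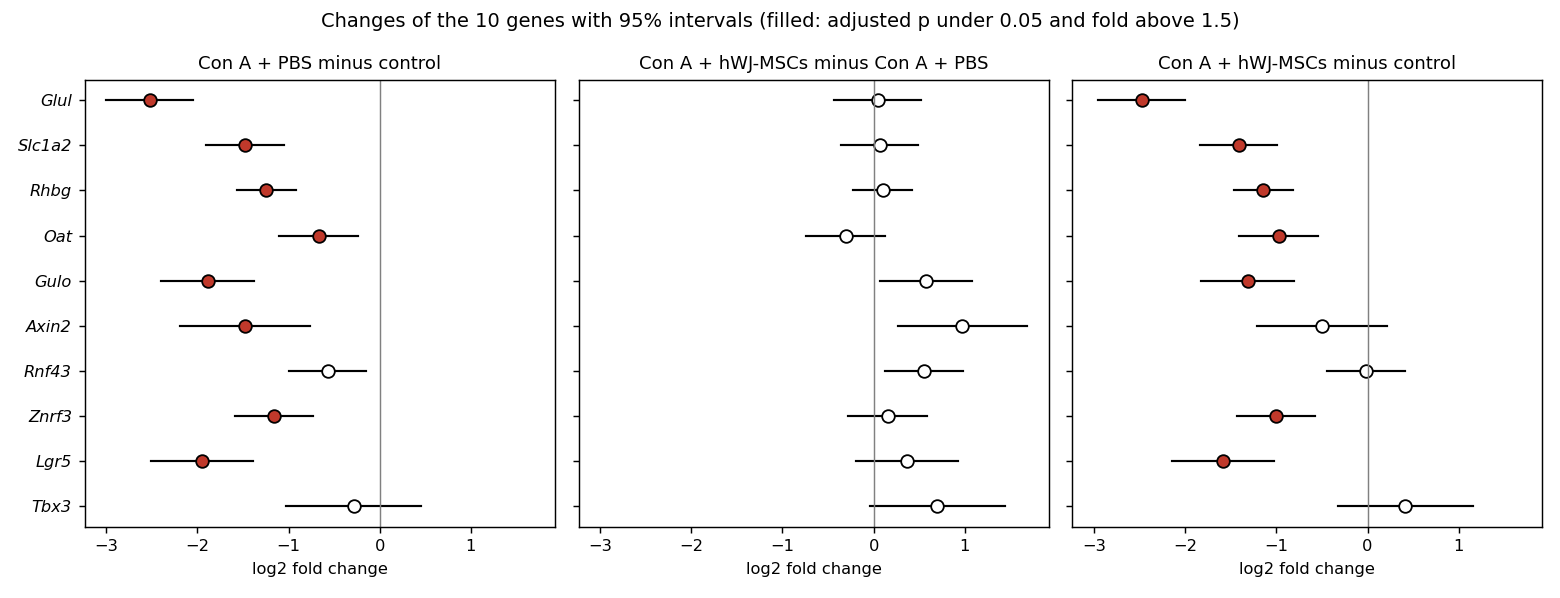
Log2 fold change of each of the 10 genes with its 95% interval in the 3 comparisons, filled where the gene was called. The left and right panels hold 8 and 7 filled points, all below 0, and the middle panel, cells against PBS, holds none.

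The pathway genes that carry or limit the Wnt signal were examined by 5 lists of ligands, receptors, cytoplasmic components, nuclear partners and secreted or intracellular inhibitors. Of the 94 genes listed 53 were in the table, and with PBS 7 of these were called higher and 12 lower than in control mice, beside 19.5% and 19.2% of all genes tested, with a median log2 fold change of -0.11. Of 25 genes for ligands, R-spondins and their secretion 5 were in the table, and none was called with PBS (limma, 0 of 5, and 0 at an unadjusted p under 0.05). In Wls, a gene for Wnt secretion, every mouse given PBS (164 to 194) was below every control mouse (200 to 231), as in 23.4% of all genes tested. Porcn was 58, 52, 56 and 435 with PBS, so its estimate rested on a single mouse. Rspo3, the R-spondin of the central vein, was 268, 206, 200 and 247 in the control mice, 174, 214, 226 and 211 with PBS, and 196, 228, 196 and 210 with cells. The 3 groups overlapped, and the log2 fold change with PBS was -0.15 (95% interval -0.42 to 0.11, adjusted p 0.305). Wnt2 and Wnt9b, the Wnt genes of the liver endothelium, have no row in the table and were not analysed here.

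Of the 11 listed receptors and co-receptors with a row, 4 were called lower with PBS and 0 higher. They were Fzd8 (log2 fold change -1.27, SE 0.17, adjusted p 5.17e-05), Fzd4 (-0.80), the R-spondin receptor Lgr4 (-0.72) and Fzd6 (-0.60). Of 17 genes of the destruction complex and the cytoplasmic signal, 4 were called higher and 1 lower. Among those called higher was Ctnnb1, which encodes β-catenin itself. Ctnnb1 stood at 2366, 3476, 3070 and 3624 in the control mice, at 4906, 5357, 4440 and 4633 with PBS, and at 3148, 3070, 3184 and 3430 with cells. Every mouse of the Con A + PBS group was above all 8 other mice, at a log2 fold change of 0.64 over control mice (SE 0.13, adjusted p 0.00142), while the mice given cells lay within the control range. This call was lost without control replicate 1. With cells Ctnnb1 was lower than with PBS by a log2 fold change of -0.59 (SE 0.13, adjusted p 0.0252), a call kept in 7 of 12 fits that each left out 1 mouse. Tnks (-1.15), Csnk1e (-0.71), Axin1 (-0.62) and Fbxw11 (-0.62) were also called lower with cells than with PBS. These mRNA levels say nothing of the amount of β-catenin protein.

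Among the nuclear partners 5 of 15 were called lower with PBS and 2 higher. Tle2, a Groucho-family co-repressor of TCF factors, had the largest fall of the list, from 497 ± 45.4 to 92.3 ± 46.7 (log2 fold change -2.57, SE 0.32, adjusted p 4.09e-05). The related short family member Aes fell by a log2 fold change of -1.85, the TCF factor Tcf7l1 by -1.18 and the β-catenin inhibitor Ctnnbip1 by -1.06. The co-repressor exchange factor Tbl1xr1 rose (1.04). With cells Tle2 was called higher than with PBS, at 192.5 ± 56.7 (log2 fold change 1.17, SE 0.32, adjusted p 0.0384), in 5 of 12 fits that each left out 1 mouse.

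Of the 5 inhibitors with a row, 2 were called lower and 1 higher with PBS. Nkd1 and Notum, which are feedback inhibitors and targets of the pathway as Axin2 is, had the largest falls of all 5 lists. Nkd1, an inhibitor of Dishevelled that reached 64 only in control mice, was 125, 89, 119 and 103 in the control mice, 8, 10, 12 and 6 with PBS, and 13, 25, 16 and 13 with cells. Notum, an enzyme that inactivates secreted Wnt, was 604, 532, 822 and 690 in the control mice, 44, 129, 92 and 26 with PBS, and 96, 330, 150 and 74 with cells. Both were without overlap between the control mice and the 8 mice given Con A. The log2 fold changes with PBS were -3.48 for Nkd1 (SE 0.33, adjusted p 4.36e-06) and -3.40 for Notum (SE 0.49, adjusted p 1.13e-04), each beyond that of every member. With cells the log2 differences from PBS were 0.82 for Nkd1 (adjusted p 0.0987) and 1.16 for Notum (adjusted p 0.119), and both genes stayed called lower than in control mice, at -2.67 and -2.24. Frzb, a secreted Wnt antagonist, rose with PBS (1.22, adjusted p 0.00215), but reached 64 only in mice given Con A and is listed through them.

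The metabolic neighbours of the enzymes and transporters moved in both directions. Over all genes tested, 19.5% were called higher and 19.2% lower with PBS, and 4.2% higher and 4.38% lower with cells against PBS. Of 16 genes of glutamine, glutamate and ammonium handling 6 were called higher and 4 lower with PBS. Those that rose included Asns, asparagine synthetase, which consumes glutamine, from 17.8 ± 5.91 to 118 ± 30.6 (log2 fold change 2.69, SE 0.30, adjusted p 1.73e-05). Asns and Slc38a1, 2 of the 6 genes called higher, reached 64 in no control mouse and are listed only through mice given Con A. Gls2, the periportal glutaminase that releases ammonium from glutamine, fell from 6880 ± 645 to 1423 ± 458 (-2.34, SE 0.27, adjusted p 2.35e-05), and the amino acid transporters Slc38a4 (-1.85) and Slc38a3 (-1.82) and the aminotransferase Gpt (-1.83) also fell. With cells the transporters Slc38a2 (-0.95) and Slc7a5 (-0.87) were called lower than with PBS. Of 14 genes of ornithine and proline metabolism, around Oat, 4 were called higher and 4 lower with PBS. The 4 lower genes were Prodh (-3.28) and Prodh2 (-2.02), which oxidize proline and hydroxyproline, Otc of the urea cycle (-3.21) and Aldh4a1 (-1.93). Odc1, the entry enzyme of polyamine synthesis, rose (1.64). With cells 3 of the 14 were called higher than with PBS, namely Otc (1.68), Prodh (1.06) and Prodh2 (0.91), and 1 lower, the spermine synthase Sms (-0.60). Of 13 genes of ascorbate synthesis and transport, around Gulo, 5 were called lower and 1 higher. Rgn, the lactonase of the step before Gulo, fell from 65497 ± 8414 to 1961 ± 1272 (-5.30, SE 0.54, adjusted p 9.20e-06), and the ascorbate transporter Slc23a1 fell (-1.43) and was called higher with cells than with PBS (0.60, adjusted p 0.0188).

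Most other pericentral genes fell as well. Of the 29 with a row, 23 were called lower and 1 higher with PBS, beside 19.2% and 19.5% of all genes tested. The median log2 fold change was -2.30, a difference from the 10 genes that was not tested. The largest falls were those of Cyp7a1, the rate-limiting enzyme of bile acid synthesis (-5.69, SE 0.53), Rgn (-5.30), Akr1c6 (-5.23) and Cyp2c50 (-5.02). The gene that rose was Tuba8, a tubulin that reached 64 in no control mouse. Of 30 periportal genes, which belong to the opposite zone, 17 were called lower and 3 higher with PBS, and the median was -1.15. Hsd17b6 (-3.54), Etnppl (-3.21), Otc (-3.21) and Cyp2f2 (-2.96) fell most, and the urea cycle enzyme Ass1 fell by a log2 fold change of -2.44. The fall was therefore not limited to the pericentral zone in these lists. With cells, 5 of the 29 pericentral genes were called higher than with PBS and 0 lower, beside 4.2% and 4.38% of all genes tested. They were Akr1c6 (2.49), Nr1i3 (1.35), Avpr1a (1.14), Lect2 (0.97) and Gstm2 (0.70), and the median of the list was 0.44. Of the periportal genes 4 of 30 were called higher and 0 lower, among them Hsd17b6 (2.32), Otc (1.68) and Agxt (1.14). Without Con A + PBS replicate 1, or without replicate 2 or 3 of the mice given cells, neither list and none of the pathway lists had a call in this comparison, as few genes had in the whole table, and the counts ran from 0 to 8 for the pericentral and from 0 to 10 for the periportal genes when 1 mouse was left out. Rgn, Slc38a3, Gls2 and Otc stand on more than 1 of these lists.

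**Figure D3:**
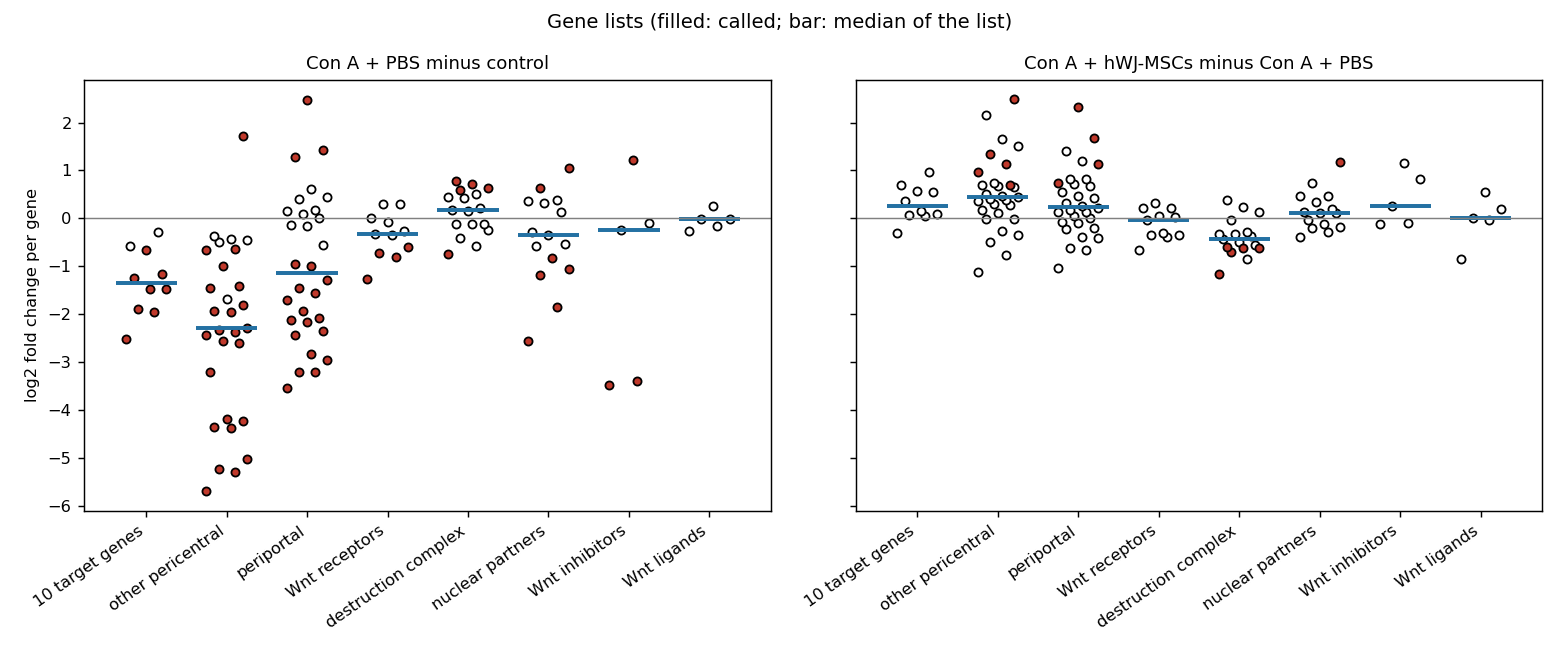
Log2 fold change of each gene of 8 lists, with the list's median as a bar and called genes filled, for PBS against control (left) and cells against PBS (right). The 10 target genes have a median of -1.36 on the left, between the other pericentral genes at -2.30 and the periportal genes at -1.15. The list labelled Wnt ligands, which includes R-spondin and secretion genes and lacks Wnt2 and Wnt9b, has a median of -0.02.

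Marker genes of several cell types moved with these results. Their calls with PBS stand beside 19.2% of all genes tested called lower and 19.5% called higher. In bulk liver, fewer cells of a type and less RNA per cell cannot be told apart. The summed value of 9 hepatocyte markers ran from 865783 to 1064010 in control mice, from 863697 to 935649 with PBS and from 938848 to 966176 with cells, with 4 of 9 called lower and 1 higher with PBS. Such abundant genes carry tied top values in this table. Alb, albumin, stood at 341028, the largest value of the table, in every mouse, so it could show no difference. Fgb stood at that value in every mouse given Con A. The near-equal sums therefore say little of hepatocyte RNA. Below that value, Apoa1 averaged 147628 in control mice and 45310 with PBS, and Apob 45917 and 61865. Of 12 endothelial markers 8 were called lower and 1 higher with PBS, and their sum ran from 4574 to 6418 in control mice, from 1692 to 2606 with PBS and from 2087 to 3092 with cells. Clec4g, 1 of the 8, reached 64 only in control mice. The sum of 5 markers of central vein endothelium, the source of the ligands, ran from 517 to 680, from 517 to 679 and from 398 to 478, Rspo3 included. Of the 10 listed, 5 had a row, and Kit (-1.19), Lhx6 (-1.63) and Vwf (-0.89) fell and Thbd rose (2.75) with PBS. Kit and Lhx6 reached 64 only in control mice and Thbd only in mice given Con A. All 10 Kupffer cell markers were called lower with PBS, with sums of 5454 to 8486 in control mice, 771 to 1545 with PBS and 618 to 2032 with cells, 3 of the 10 having reached 64 only in control mice. Of 10 monocyte and neutrophil markers 8 were called higher and 1 lower, and 4 of the 10 reached 64 in no control mouse. Of 12 T and NK cell markers 5 had a row, and all 5 reached 64 only in mice given Con A, so their direction was set by the table's limit. The sum of these 5 ran from 39 to 75 in control mice, from 600 to 1111 with PBS and from 582 to 1130 with cells. Of the other lists with PBS, 1 of 5 cholangiocyte markers was called higher and 4 of 9 stellate cell markers were called lower (among them Ngfr, which reached 64 only in control mice). Of 8 proliferation markers 3 had a row, and all 3 were called higher, each overlapping with the control mice. No marker in the table was at 0 in every mouse. The part of these cell types in the falls of the 10 genes was not tested.

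The 10 genes did not follow a single pattern over the 12 mice. Pearson's r of log2 values with Glul, given as a description over 12 mice that share 3 treatment groups, was 0.96 for Lgr5, 0.94 for Slc1a2, 0.92 for Rhbg, 0.92 for Gulo and 0.91 for Znrf3. It was 0.75 for Oat, 0.68 for Axin2, 0.45 for Rnf43 and 0.04 for Tbx3. Axin2 had its highest values among the members with Gulo (0.89) and Rnf43 (0.88). Among all genes, those most like Glul were Ugt2a3 (0.99), Ugt2b1 (0.99), Cyp2c54 (0.99), Prlr (0.98) and Abca2 (0.98). Those most like Axin2 were Zdhhc9 (0.98), Amt (0.97), Pvrl3 (0.97), Prkd3 (0.96) and AI182371 (0.96), and those most like Gulo were Bche, Pipox, Cat, Acsm5 and Ngfr (all 0.99). The means of Prkd3, for example, were 4151 in control mice, 1402 with PBS and 2806 with cells.

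**Figure D4:**
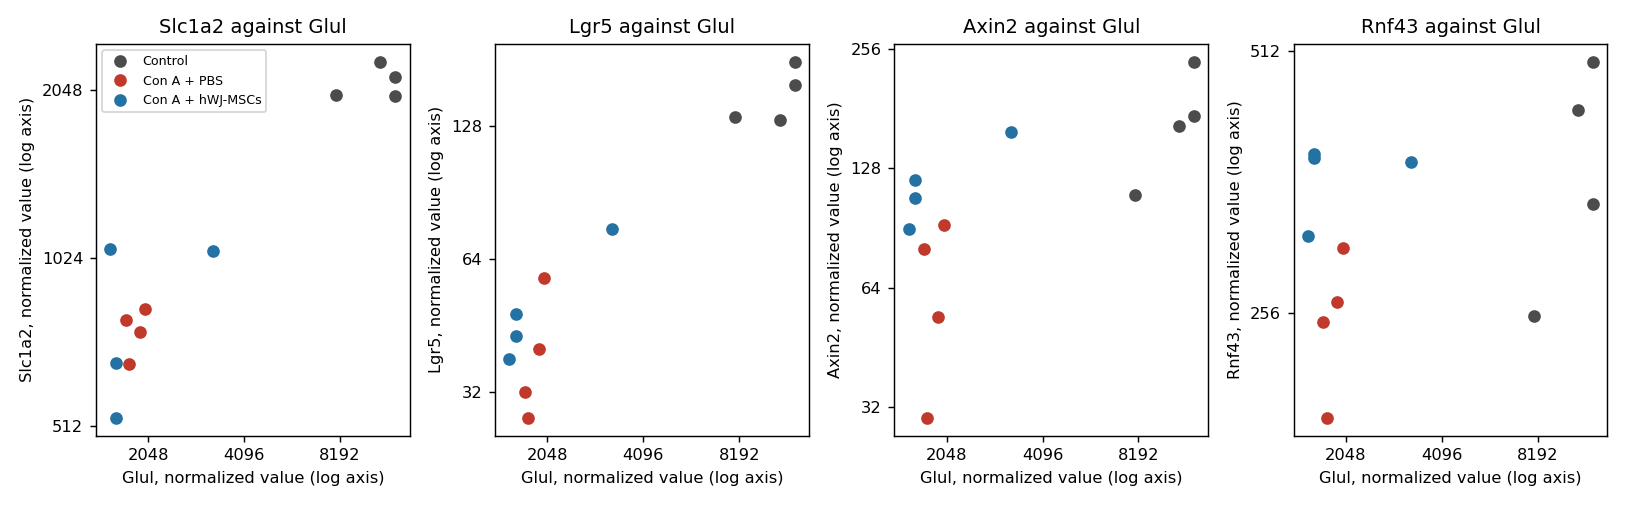
Normalized values of Slc1a2, Lgr5, Axin2 and Rnf43 against Glul in the 12 mice (both axes log), with control mice in grey, the Con A + PBS group in red and the Con A + hWJ-MSCs group in blue. Slc1a2 and Lgr5 separate control mice from the other 8, while the blue points of Rnf43 lie above the red ones at Glul values of 1558 to 3273.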

How the data were processed

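Liver mRNA of 12 mice (3 groups of 4) was purified with poly-T beads and sequenced in pairs. Per the submitters' processing notes, Bowtie2 2.2.1, RSEM 1.2.18 and mm10 were used. The authors deposited a score per gene and mouse, a whole number already normalized between mice by a step not given in the sources used here, so count tests were not applied. The depth per mouse is unknown. Scores were fitted as log2(score + 1) with limma 3.58.1 (R 4.3.3; lmFit, eBayes with trend) over 11289 genes and 12 mice without covariates, p-values were adjusted by the Benjamini-Hochberg method, and the code was tested on simulated data. The labels say nothing of separate experiments, so p-values measure the spread between these mice. Replicate numbers were not taken as pairs, but these values do not settle whether same-numbered mice belong together. Of 12 same-numbered pairs 4 correlated above 0.1 (r -0.118 to 0.375), and the differently numbered pairs ran from -0.385 to 0.141. Results with the replicate number as a block are given further on. The members, lists and tests were chosen with earlier results of these data known. From each other list up to 4 called genes (8 over the Wnt lists) with the largest change with PBS were named and up to 3 with cells; other names, among them Ctnnb1, Odc1, Ass1 and Rspo3, were chosen after their values were seen. Alternatives were pseudocount, filter, centring, trend, samples, thresholds, replicate block and leaving out each mouse. Centring on the median could change nothing, because the mice already shared a common median, so it does not check the normalization. RefSeq windows and GENCODE M21 gave sequences and annotation. No column of mouse values was left out.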

Additional observations from a re-analysis of the deposited data

Results flagged for a closer look

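In 2 of the 30 gene-by-group sets of 4 mice, 1 mouse stood apart from the other 3 by Dixon's test at the 95% level, and chance gives about 1 in 20. Glul in Con A + hWJ-MSCs replicate 2 was 3273, with a gap to the next mouse of 0.94 of the group's range on the log2 scale. Rnf43 in Con A + hWJ-MSCs replicate 4 was 314, with a gap of 0.904 of the range on that scale. The cause was not tested in either.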

How the results depend on the processing

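The 8 members called lower with PBS ranged from 7 (fold above 2, or a mean value of at least 100, which drops Lgr5) to 9 (adjusted p alone), and the 7 called lower with cells against control ranged from 6 to 7. For cells against PBS the count of 0 became 1 (Axin2) with the unadjusted p and the same fold. With the replicate number as a block it was also 1 (Axin2, adjusted p 0.0367), and the block changed no other call of a member; the periportal genes called with cells went from 4 to 10. Leaving out 1 mouse gave 0 to 3, with 3 without Con A + PBS replicate 2. Leaving out 1 mouse turned the sign of 4 uncalled estimates. Rnf43, cells against control, ran from -0.20 to 0.12 and was positive without control replicate 2 (0.06), control replicate 3 or replicate 4 of the mice given cells (0.06). Tbx3 with PBS ran from -0.48 to 0.10, the latter without Con A + PBS replicate 4. For cells against PBS, Glul ran from -0.21 (without replicate 2 of the mice given cells) to 0.14, and Slc1a2 from -0.077 (without replicate 4) to 0.26, with -0.072 without replicate 2. Of the 53 pathway genes, 19 were called with PBS, 9 at a fold above 2 and 30 at adjusted p alone. The other pericentral genes called with cells ranged from 0 to 8 when 1 mouse was left out. The causes were not tested. Prior normalization, unknown depth, tied top values and 4 mice a group limit all of these values.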

Other observations

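The log2 difference between Axin2 and Glul within each mouse, a comparison chosen after the values were seen and not tested, was -6.17, -6.06, -5.68 and -6.13 in the control mice. It was -5.13, -4.43, -4.43 and -5.85 in the Con A + PBS group and -3.75, -4.36, -3.90 and -4.10 in the Con A + hWJ-MSCs group. Every mouse given cells was above every other mouse in this difference, which was 1 of 5 such differences computed. The groups given PBS and cells overlapped in those of Rnf43 minus Glul (-3.19 to -2.72 with PBS, -3.10 to -2.06 with cells), Tbx3 minus Glul (-3.02 to -1.24 and -1.69 to -0.93) and Axin2 minus Lgr5 (0.10 to 1.30 and 1.06 to 1.46), and also in Rnf43 minus Znrf3.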
